A study of Mus musculus with 6 samples.

Results

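The nuclear genes of mitochondrial oxidative phosphorylation were compared between cerebral cortex labelled Egr1/Egr3 double knockout and wild type cerebral cortex of the mouse. Members were all probe sets whose platform annotation gave a single gene symbol starting with Nduf, Uqcr, Cox4 to Cox8 or Atp5, together with Sdha, Sdhb, Sdhc and Sdhd. A probe set is the group of oligonucleotides on an Affymetrix array that reports 1 transcript or a few related ones. The rule gave 179 probe sets for 90 genes, out of 45037 probe sets, of which 34945 carried 1 symbol for 18193 genes. By complex these were 34 genes of complex I on 76 probe sets, 8 assembly factors of complex I on 10, 4 genes of complex II on 9, 8 of complex III on 16, 19 of complex IV on 37 and 17 of complex V on 31. Ndufa4 and its paralogue Ndufa4l2 were counted with complex IV, where the Ndufa4 protein is now placed. A further 10 probe sets carried a member's symbol among several and were left out.

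The 2 groups held 3 arrays each, all titled as brain, cerebral cortex. The labels give 1 group as lacking Egr1 and Egr3, a pair of immediate early zinc-finger transcription factors induced by neuronal activity, and the other as wild type. The labels gave no strain, age, sex or targeting construct, and did not say whether replicates came from separate animals. The spread behind the p-values is that between these arrays and may be technical in part. Sex-linked genes, given below, set double knockout replicate 2 apart from the other arrays. In whole tissue, fewer cells of a type and less RNA per cell cannot be told apart.

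Oxidative phosphorylation passes electrons from NADH through complex I, or from succinate through complex II, to ubiquinone, then through complex III and cytochrome c to complex IV, which reduces oxygen. Complexes I, III and IV pump protons across the inner mitochondrial membrane, and complex V, the ATP synthase, uses the gradient to make ATP. Most subunits are encoded in the nucleus and the remainder in mitochondrial DNA. Neurons draw most of their ATP from this pathway, and ion pumping and synaptic transmission are its main consumers in cortex.

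The label check gave a mixed picture. Egr3 fell to 338.5, 369.9 and 507.3 intensity units on the double knockout arrays, against 1188.8, 2669.6 and 924.1 on the wild type arrays (log2 difference -1.80, SE 0.32, limma adjusted p = 0.0361). Egr1 had signals of 2116.5, 2646.6 and 2657.3 on the arrays labelled double knockout, against 1246.6, 2054.0 and 1429.6 on the wild type arrays, so it was not lower under the knockout label (0.67, adjusted p = 0.108); whether its probes lie in the deleted part is not known here. Double knockout replicate 1 is titled in the same way as the wild type arrays, and its group was taken from its description. Xist was bright on double knockout replicate 2 alone (3139.8 units, against at most 42.5 on the others). The Y-linked Eif2s3y had 0.630 units there and 382.7 to 608.8 on the other 5, so the groups differ in sex by 1 array. On wild type replicate 1 the spiked control transcripts were at 0.342 to 0.497 of the other arrays' median. The ratio of 3' to 5' Gapdh control probes was 0.922, 0.950 and 0.881 in the double knockout label and 0.842, 0.806 and 0.873 in wild type. Direction words below therefore refer to the arrays labelled double knockout.

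Markers of other cells differed between the groups as well. All 10 tested microglia markers had lower signal under the double knockout label, with summed signals of 3077 to 4026 units against 4116 to 4962 in wild type, and 0 of them passed the threshold (limma, 6 at an unadjusted p under 0.05). Of the 12 striated muscle markers on the array, 4 were bright enough to test and 2 fell, Tnnc1 (log2 difference -2.91) and Myh7 (-2.85), with sums over the 4 of 191 to 238 against 792 to 907 units. Beside these counts, 51.5% of all 11053 tested genes were higher, 17.5% had an unadjusted p under 0.05 and 1.22% passed (limma). Neuron markers summed to 32583 to 35793 units under the double knockout label and 27174 to 33047 in wild type, which overlap, with 6 higher and 4 lower. The 7 parvalbumin interneuron markers summed to 4374 to 5052 against 4600 to 6073 units, which overlap, with 2 higher and 5 lower. The 4 tested choroid plexus markers summed to 4832, 123 and 132 units in the double knockout label and 185, 465 and 10983 in wild type, so double knockout replicate 1 and wild type replicate 3 stood apart. The 8 tested oligodendrocyte markers summed to 20715 to 23902 against 18515 to 20398 units, with 5 higher and 3 lower, among them Olig2 (-0.48, adjusted p = 0.196). The 8 tested endothelial and mural markers summed to 1334 to 1616 against 1730 to 2033 units, with 3 higher and 5 lower. Without the pericyte gene Rgs5 (-0.63, adjusted p = 0.102), a choice made after seeing the data, the endothelial and mural sums were 788 to 899 against 728 to 981 units and overlapped. The astrocyte marker Aqp4, a water channel, fell (-0.96, adjusted p = 0.0139). The 8 astrocyte markers, with 3 higher and 5 lower, summed to 17114 to 17149 units against 14928 to 18054. The part of these differences in the results that follow was not tested.

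Nearly all members showed no change past the test. Signals were taken as log2(signal + 16), a scale that understates changes of dim genes, and probe sets whose mean over the 6 arrays lay above the median of all were tested, which kept 152 of the 179 member probe sets and 84 of the 90 genes. Of the 152, 2 passed a limma adjusted p of 0.05, or 1.32%, and both fell; over all 22518 probe sets tested, 1.02% passed, 0.591% as lower and 0.426% as higher. The members' share was thus near that of all probe sets. Counted by gene, on the brightest tested probe set of each, 1 of 84 passed, against 1.22% of all 11053 genes, and 14 of 84 had an unadjusted p under 0.05, against 17.5% of all. At an unadjusted p under 0.05 there were 24 of 152 member probe sets, or 15.8% against 16.6% of all; 17 were higher and 7 lower, where 8.26% of all were higher and 8.33% lower. The 2 that passed were a complex I probe set for Ndufs5 and a complex III probe set for Uqcr10. Neither passed when double knockout replicate 2 was left out (0 of 152, with 13 at an unadjusted p under 0.05), when double knockout replicate 3 was (0, with 15), or when double knockout replicate 2 and wild type replicate 1 both were (0, with 12). Both passed when double knockout replicate 1 or wild type replicate 2 was left out. Without wild type replicate 1 only Ndufs5 passed, and without wild type replicate 3 there were 4 calls, 1 lower and 3 higher.

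**Figure D1:**
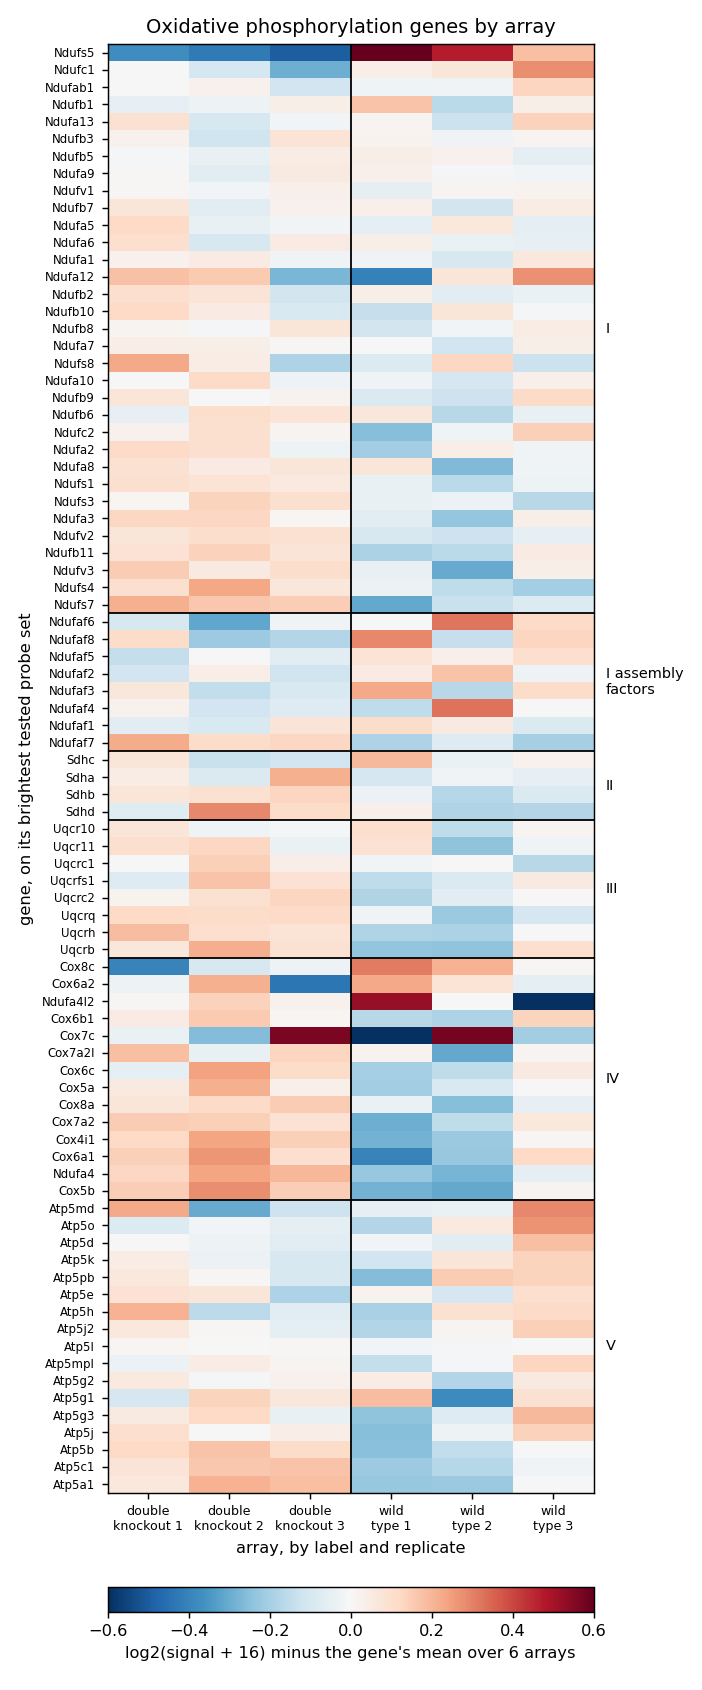
Each row is 1 of the 84 tested genes on its brightest tested probe set, grouped by complex and ordered within it by the group difference, and each column is 1 array, double knockout label on the left and wild type on the right. Colour gives log2(signal + 16) minus the gene's mean over the 6 arrays and is held at its end shade beyond 0.6. Ndufs5, in the top row, is blue on the 3 double knockout arrays and red on the 3 wild type arrays, and most of complex IV is red on the 3 double knockout arrays and blue on wild type replicates 1 and 2.

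Ndufs5, an accessory subunit of complex I on the face towards the intermembrane space, was the gene that fell in the count by gene. It had a single probe set under the rule, 1416494_at, so no other could be set beside it. The RefSeq record listed for that probe set is of the non-coding RNA class. Whether the probe set reports the protein-coding transcript is not known here. It had signals of 1065.6, 1027.7 and 979.9 units on the double knockout arrays, against 2172.9, 1928.5 and 1573.7 units on the wild type arrays. The double knockout arrays lay close together and below every wild type array. The mean was 1024 ± 43.0 units in the double knockout label and 1892 ± 301 units in wild type (SD, n = 3 each), and the fitted log2 difference -0.86 with an SE of 0.12 (limma adjusted p = 0.0139). Under quantile normalization the difference was -0.90 with an adjusted p of 0.0223. Over 19 settings the difference ran between -0.99 and -0.76 and the adjusted p between 0.00517 and 0.182, with 15 past the threshold. The 4 others were the fit with no filter on dim probe sets (0.107), those that left out double knockout replicate 2 (0.0848) or 3 (0.0898), and the one that left out double knockout replicate 2 with wild type replicate 1 (0.182).

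Uqcr10 encodes a small subunit of complex III, and its 3 tested probe sets did not give the same result. Probe set 1434340_at had 204.8, 157.1 and 205.6 units in the double knockout label, against 373.1, 312.1 and 348.5 units in wild type. All 3 double knockout arrays were below all 3 wild type arrays, and the fitted log2 difference -0.82 had an SE of 0.13 (limma adjusted p = 0.027). Probe set 1434341_x_at, of a class the array maker marks as prone to cross-hybridise, had 464.4, 372.9 and 402.5 units in the double knockout label, against 658.2, 541.1 and 587.4 units in wild type. These did not overlap either, with a log2 difference of -0.51 and an adjusted p of 0.0795. The brightest probe set, 1424364_a_at, had 1593.1, 1490.5 and 1503.1 units in the double knockout label, against 1626.7, 1360.0 and 1535.4 units in wild type. Its groups overlapped, with a log2 difference of 0.02 (SE 0.10, adjusted p = 0.941). The call on 1434340_at held in 13 of 19 settings, with adjusted p from 0.0173 to 0.215. It was lost with no filter (0.119), when double knockout replicate 2 (0.0967) or 3 (0.0812) was left out, when wild type replicate 1 (0.0802) or 3 (0.0590) was, and when double knockout replicate 2 was left out with wild type replicate 1 (-0.64, 0.215).

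**Figure D2:**
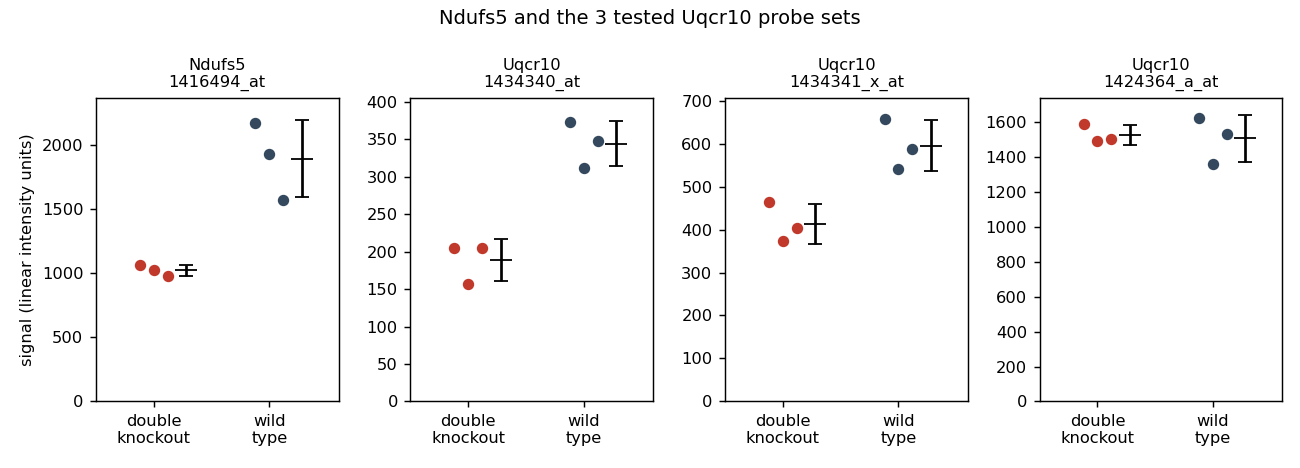
Signal in linear intensity units, from 0, of Ndufs5 and the 3 tested Uqcr10 probe sets on each array; points are arrays, and the bar beside them gives the mean and SD of 3. The groups lie apart for Ndufs5 and for the 2 dimmer Uqcr10 probe sets and overlap for the brightest one, 1424364_a_at.

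Promoters of the 2 genes that gave a call are shown beside that of Cox6a1, the ubiquitous isoform of a complex IV subunit, as an example of a member that holds the motifs known for this pathway. NRF1 and GABPA are transcription factors known to bind promoters of respiratory chain genes, and Egr proteins bind a GC-rich motif. Each line is the 250 bases before the annotated start, 5′ to 3′ on the gene's strand, from RefSeq on GRCm38.p6, with matches to the NRF1 motif GCGCANGCG or the GABPA motif CCGGAAG, on either strand, in capitals. The windows are chr4:123718187-123718436 for Ndufs5, chr11:4704345-4704594 for Uqcr10 and chr5:115348959-115349208 for Cox6a1, all on the minus strand.
Ndufs5: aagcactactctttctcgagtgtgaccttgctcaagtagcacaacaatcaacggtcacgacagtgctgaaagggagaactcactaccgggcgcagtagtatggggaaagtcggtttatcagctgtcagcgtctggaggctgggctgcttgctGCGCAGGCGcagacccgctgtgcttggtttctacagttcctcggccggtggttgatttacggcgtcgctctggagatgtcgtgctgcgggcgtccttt
Uqcr10: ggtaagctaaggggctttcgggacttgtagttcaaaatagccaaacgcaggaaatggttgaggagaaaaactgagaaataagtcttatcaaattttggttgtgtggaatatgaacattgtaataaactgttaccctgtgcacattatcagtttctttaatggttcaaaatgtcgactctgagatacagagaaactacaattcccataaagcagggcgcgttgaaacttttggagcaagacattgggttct
Cox6a1: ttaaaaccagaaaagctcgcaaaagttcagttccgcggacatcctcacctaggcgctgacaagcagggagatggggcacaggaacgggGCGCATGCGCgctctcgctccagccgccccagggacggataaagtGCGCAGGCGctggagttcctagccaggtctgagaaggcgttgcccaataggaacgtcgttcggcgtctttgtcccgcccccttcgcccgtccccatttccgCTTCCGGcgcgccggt
Ndufs5 had an NRF1 match 98 to 90 bases before the start. Cox6a1 had 2 overlapping NRF1 matches, on opposite strands, within 162 to 153 bases before the start, a further one at 117 to 109 and a GABPA match on the other strand at 16 to 10. These windows hold no Egr motif, GCGNGGGCG, on either strand, and the Uqcr10 window holds no match to any of the 3 motifs.

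Over the members, 74 of 90 genes matched a RefSeq promoter. The NRF1 motif was in 13 of the 74 (17.6%) and in 5.86% of all 27025 genes with a promoter of the same length. The NRF1 motif was first searched with a further C at its end and was shortened after those counts were seen; the longer form was in 12 of the 74 (16.2%), against 4.23% of all genes. The GABPA motif was in 14 of the 74 (18.9%), against 7.83% of all genes. The Egr motif was in 3 of the 74 (4.05%), namely Atp5g2, Ndufab1 and Ndufaf7, against 5.33% of all genes. A match describes these letters only and is not a bound site, and the base composition of the 2 sets of promoters was not matched.

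Among the 33 tested genes of complex I, the entry point for electrons from NADH, Ndufs5 fell and the other 32 did not pass. The differences ran from -0.86 to 0.35 with a median of 0.05, and 25 genes were above 0 and 8 below. Over all 11053 tested genes, 51.5% were above 0. At an unadjusted p under 0.05 there were 4 of the 33 (limma), against 17.5% of all tested genes. Under quantile normalization 18 were above 0 and 15 below, with a median of 0.01. The largest positive difference was that of Ndufs7, a core subunit that carries the last iron-sulphur cluster before ubiquinone. It had 1680.2, 1618.3 and 1601.7 units in the double knockout label and 1167.0, 1317.3 and 1363.9 units in wild type, with a log2 difference of 0.35 (SE 0.10) and no overlap, but an adjusted p of 0.129. Next was Ndufs4, an accessory subunit whose loss in mice gives a Leigh-like encephalopathy. Its brightest probe set had 867.9, 953.7 and 849.6 units in the double knockout label and 790.5, 726.3 and 700.3 units in wild type (0.26, adjusted p = 0.227). A dimmer Ndufs4 probe set, 1418117_at, had 123.8, 97.7 and 117.8 units in the double knockout label and 164.4, 172.1 and 161.2 units in wild type, a difference of -0.50 with an adjusted p of 0.111. The third tested Ndufs4 probe set, 1438166_x_at, had 139.2, 110.2 and 141.3 units in the double knockout label and 109.9, 110.0 and 106.4 units in wild type (0.22, adjusted p = 0.454), so 2 of the 3 were above 0 and 1 below, each without overlap. Ndufc1, a small subunit of the membrane arm, had 2241.7, 2080.2 and 1822.9 units in the double knockout label and 2302.2, 2355.6 and 2722.1 units in wild type, and was lower on every double knockout array (-0.26, adjusted p = 0.288). Ndufb4 was too dim to test.

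The complex I assembly factors, the Ndufaf proteins that help build the complex without staying in it, had differences from -0.29 to 0.31 with a median of -0.12, and 7 of 8 were below 0. None of the 8 passed the threshold (limma, 1 at an unadjusted p under 0.05, against 17.5% of all tested genes). Of all tested genes, 51.5% were above 0. The median of the 8 on each array, relative to the wild type mean, was -0.06, -0.14 and -0.14 in the double knockout label and -0.00, 0.05 and -0.04 in wild type, so the 3 double knockout arrays were lowest. Under quantile normalization the median difference was -0.11, with 7 of 8 below 0. The array medians were then -0.05, -0.13 and -0.14 in the double knockout label and -0.02, 0.05 and -0.01 in wild type, which do not overlap. Ndufaf6, which is needed for an early step of assembly, had 83.8, 69.9 and 89.1 units in the double knockout label and 90.6, 117.3 and 99.6 units in wild type (-0.29, adjusted p = 0.378). Ndufaf8, a partner of Ndufaf5, had 604.7, 477.8 and 493.0 units in the double knockout label and 685.3, 506.5 and 612.1 units in wild type, which overlap (-0.19, adjusted p = 0.531). The factor above 0 was Ndufaf7, a methyltransferase that acts on a core subunit of complex I. It had 323.4, 298.4 and 301.2 units in the double knockout label and 240.0, 259.5 and 237.5 units in wild type, with no overlap (0.31, adjusted p = 0.197). Other assembly proteins of complex I without an Ndufaf name had a median of 0.05 over 8 genes, and none passed (limma, 0 at an unadjusted p under 0.05). Foxred1, an oxidoreductase needed for assembly, had a difference of 0.27 (adjusted p = 0.315), and Tmem126b, a membrane assembly factor, one of 0.20 (0.497).

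Complex II, succinate dehydrogenase, is the member of both the chain and the tricarboxylic acid cycle and is wholly encoded in the nucleus. None of its 4 genes passed (limma, 0 at an unadjusted p under 0.05), and their median was 0.15. Sdha, the flavoprotein, had 2119.1, 1929.9 and 2377.0 units in the double knockout label and 1909.8, 2021.4 and 1984.6 units in wild type (0.11, adjusted p = 0.638). Sdhb, the iron-sulphur subunit, had 2216.1, 2241.7 and 2304.1 units in the double knockout label and 2052.7, 1870.9 and 1982.5 units in wild type. It was the gene of this complex whose groups did not overlap (0.19, adjusted p = 0.331). Of the membrane anchors, Sdhc had 1010.0, 872.2 and 883.2 units in the double knockout label and 1101.4, 931.6 and 975.1 units in wild type (-0.12, adjusted p = 0.626). Sdhd had 726.8, 936.8 and 827.4 units in the double knockout label and 781.2, 672.9 and 674.4 units in wild type (0.22, adjusted p = 0.391). Averaging the probe sets of each gene in place of the brightest gave a median of 0.06.

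In complex III, which passes electrons from ubiquinol to cytochrome c, all 8 genes lay above 0 on their brightest probe sets, between 0.02 and 0.25 with a median of 0.14. None of the 8 passed the threshold (limma, 2 at an unadjusted p under 0.05, against 17.5% of all tested genes). The share above 0 was 51.5% over all tested genes. Per array the median was 0.13, 0.21 and 0.18 in the double knockout label and -0.01, -0.09 and 0.06 in wild type, which do not overlap. Uqcrb, which takes part in ubiquinone binding, had 7701.9, 8564.0 and 7844.0 units in the double knockout label and 6250.1, 6214.8 and 7881.7 units in wild type. Wild type replicate 3 was as bright as the double knockout arrays, and the difference was 0.25 (adjusted p = 0.354), which turned to -0.03 under quantile normalization. Uqcrh, the hinge protein beside cytochrome c1, had 3357.1, 3172.3 and 3130.7 units in the double knockout label and 2605.8, 2588.3 and 2950.0 units in wild type. These did not overlap (0.25, adjusted p = 0.259). Under quantile normalization 7 genes of the complex were above 0 and 1 below, the median was 0.09, and wild type replicate 1, at 0.12, lay among the double knockout arrays, at 0.05, 0.13 and 0.12.

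In complex IV, cytochrome c oxidase, 12 of 14 tested genes were above 0, with a median of 0.20, and none passed the threshold (limma, 4 at an unadjusted p under 0.05). Over all tested genes, 51.5% were above 0 and 17.5% had an unadjusted p under 0.05. Among other probe sets with a mean log2 signal above 11, 80.7% were higher in the double knockout label. Per array the median was 0.17, 0.25 and 0.22 in the double knockout label and -0.09, -0.05 and 0.12 in wild type. The groups did not overlap, and wild type replicate 3 was nearest to the double knockout arrays. Under quantile normalization the median difference was 0.09, and the array medians, 0.03, 0.10 and 0.07 in the double knockout label and 0.07, 0.00 and -0.05 in wild type, overlapped. On the brightest probe set of each gene, the largest differences were those of Cox5b and Ndufa4. Cox5b, a zinc-binding subunit on the matrix side, had 6595.3, 7219.1 and 6578.8 units on its brightest probe set in the double knockout label and 4886.2, 4800.3 and 6008.3 units in wild type. Every double knockout array was above every wild type array (0.38, SE 0.12, adjusted p = 0.164), and under quantile normalization the difference was 0.14 (adjusted p = 0.368). Without wild type replicate 3, 3 Cox5b probe sets rose, by 0.46 (1435613_x_at, adjusted p = 0.0471), 0.55 (1454716_x_at, 0.0309) and 0.49 (1456588_x_at, 0.0434); all 3 are of the class marked as prone to cross-hybridise. Over all 6 arrays their differences were 0.32, 0.42 and 0.38. A dim tested probe set, 1436149_at, was at -0.002. Another, 1448514_at, was too dim to test, with 11.7, 23.1 and 14.3 units in the double knockout label and 37.0, 37.9 and 34.9 units in wild type. The fourth bright Cox5b probe set, 1416902_a_at, had 3174.4, 3283.7 and 3227.3 units in the double knockout label and 2905.0, 2504.2 and 2967.3 units in wild type (0.21 over all 6 arrays, adjusted p = 0.342). Ndufa4 had 4319.4, 4674.4 and 4552.1 units in the double knockout label and 3382.9, 3258.0 and 3806.7 units in wild type, again without overlap (0.38, SE 0.10, adjusted p = 0.126), and with 0.24 under quantile normalization.

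Several subunits of complex IV have isoforms for different tissues, and none of the ubiquitous forms passed the test. Cox4i1 had 6095.2, 6622.0 and 6194.6 units in the double knockout label and 4605.1, 4814.6 and 5639.0 units in wild type (0.33, adjusted p = 0.195). Cox6a1 had 7534.4, 8192.9 and 7316.4 units in the double knockout label and 5150.5, 5811.9 and 7413.2 units in wild type, where wild type replicate 3 reached the double knockout range (0.34, adjusted p = 0.266). A second Cox6a1 probe set, 1417418_s_at, had 5165.6, 5822.3 and 5761.7 units in the double knockout label and 4435.5, 3593.0 and 4392.6 units in wild type. Its groups did not overlap (0.43, adjusted p = 0.123, and 0.23 under quantile normalization). Cox7a2 had 6786.8, 6739.8 and 6490.3 units in the double knockout label and 4988.1, 5496.6 and 6373.1 units in wild type (0.25, adjusted p = 0.315). On the brightest probe sets of these 3 genes wild type replicate 3 was the brightest wild type array. Under quantile normalization their differences were 0.09 for Cox4i1, 0.09 for Cox6a1 and 0.01 for Cox7a2. Cox8a had 4287.1, 4416.7 and 4524.3 units in the double knockout label and 3967.0, 3411.2 and 3931.7 units in wild type (0.23, adjusted p = 0.311, and 0.07 under quantile normalization). Cox6b1 had 5469.1, 5884.8 and 5318.9 units in the double knockout label and 4710.2, 4641.7 and 5802.1 units in wild type (0.14, adjusted p = 0.594), and its difference was -0.08 under quantile normalization. Cox7a2l, a protein of respiratory supercomplexes, had 1393.0, 1188.0 and 1341.8 units in the double knockout label and 1245.3, 986.9 and 1241.9 units in wild type, which overlap (0.18, adjusted p = 0.493).

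The isoforms known from striated muscle or testis were dim or showed no change past the test. Cox6a2, the heart and skeletal muscle form, had 154.8, 186.5 and 113.2 units in the double knockout label and 188.5, 169.0 and 151.8 units in wild type. The groups overlapped (-0.17, SE 0.17, adjusted p = 0.673), and without double knockout replicate 3 the difference was 0.01. A second Cox6a2 probe set, 1457633_x_at, was too dim to test, with 10.5, 20.1 and 10.4 units in the double knockout label and 24.6, 30.9 and 31.2 units in wild type, which do not overlap; the sum of the tested striated muscle markers was also lower in the double knockout label, and its part in this was not tested. Cox8c, known from testis, had 46.7, 61.5 and 65.1 units in the double knockout label and 86.8, 79.6 and 67.3 units in wild type (-0.35, adjusted p = 0.320). Ndufa4l2, a paralogue known to be induced by hypoxia, had 49.0, 55.2 and 49.8 units in the double knockout label and 77.0, 48.7 and 24.1 units in wild type, so the wild type arrays enclosed the double knockout arrays (0.11, adjusted p = 0.871), and without wild type replicate 3 the sign turned (-0.20). The muscle forms Cox7a1 and Cox8b, the lung form Cox4i2 and the testis forms Cox6b2 and Cox7b2 were too dim to test. Cox7a1 had 32.2, 33.0 and 26.8 units in the double knockout label and 31.5, 37.7 and 26.9 units in wild type.

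Complex V, the ATP synthase, had 10 of 17 genes above 0 and 7 below, with a median of 0.01 and a range from -0.13 to 0.30. None of the 17 passed the threshold (limma, 3 at an unadjusted p under 0.05, against 17.5% of all tested genes). Above 0 were 51.5% of all tested genes. Under the deposited scaling the largest differences were those of 2 genes of the catalytic head. Atp5a1, its alpha subunit, had 3979.2, 4396.6 and 4312.2 units in the double knockout label and 3252.8, 3264.7 and 3802.6 units in wild type (0.30, adjusted p = 0.211). Atp5c1, the gamma subunit that turns inside it, had 3795.1, 4024.3 and 4059.1 units in the double knockout label and 3096.2, 3191.0 and 3546.8 units in wild type (0.27, adjusted p = 0.223). Neither overlapped, and under quantile normalization the differences were 0.17 for Atp5a1 and 0.16 for Atp5c1. Other genes of the head differed from these. Atp5b did not overlap (0.27, adjusted p = 0.254) but was at 0.05 under quantile normalization. Atp5d (-0.06) and Atp5e (-0.01) were below 0. Atp5o, the subunit that joins head and stalk, had 2884.4, 3019.3 and 2933.0 units in the double knockout label and 2702.6, 3179.9 and 3689.0 units in wild type (-0.10, adjusted p = 0.721), and without wild type replicate 3 the difference was 0.01. Atp5md, a small subunit that holds synthase dimers together, had 4526.7, 3124.4 and 3546.9 units in the double knockout label and 3729.5, 3754.8 and 4722.2 units in wild type (-0.13, adjusted p = 0.714). Both genes overlapped between the groups, and under quantile normalization Atp5md (-0.28) and Atp5o (-0.18) had larger differences than Atp5a1 and Atp5c1.

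Atp5g1, Atp5g2 and Atp5g3 are separate genes for the same mature c subunit of the membrane ring. Atp5g1 had 1614.3, 1902.4 and 1817.7 units in the double knockout label and 1973.0, 1325.1 and 1843.0 units in wild type (0.07, adjusted p = 0.853). Atp5g2 had 1564.8, 1493.3 and 1529.4 units in the double knockout label and 1546.9, 1325.1 and 1556.2 units in wild type (0.05, adjusted p = 0.831). Both signs turned without wild type replicate 2, to -0.10 and -0.02. Atp5g3 had 4935.7, 5168.0 and 4618.1 units in the double knockout label and 4015.5, 4502.4 and 5443.5 units in wild type (0.09, adjusted p = 0.783), and turned to -0.12 under quantile normalization and to -0.01 without wild type replicate 1. All 3 genes overlapped between the groups. The median of complex V also turned, to -0.06 under quantile normalization, with 6 genes above 0 and 11 below; it was -0.01 when wild type replicate 1 was left out, -0.05 when double knockout replicate 2 was left out as well, and 0.09 when wild type replicate 3 was.

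**Figure D3:**
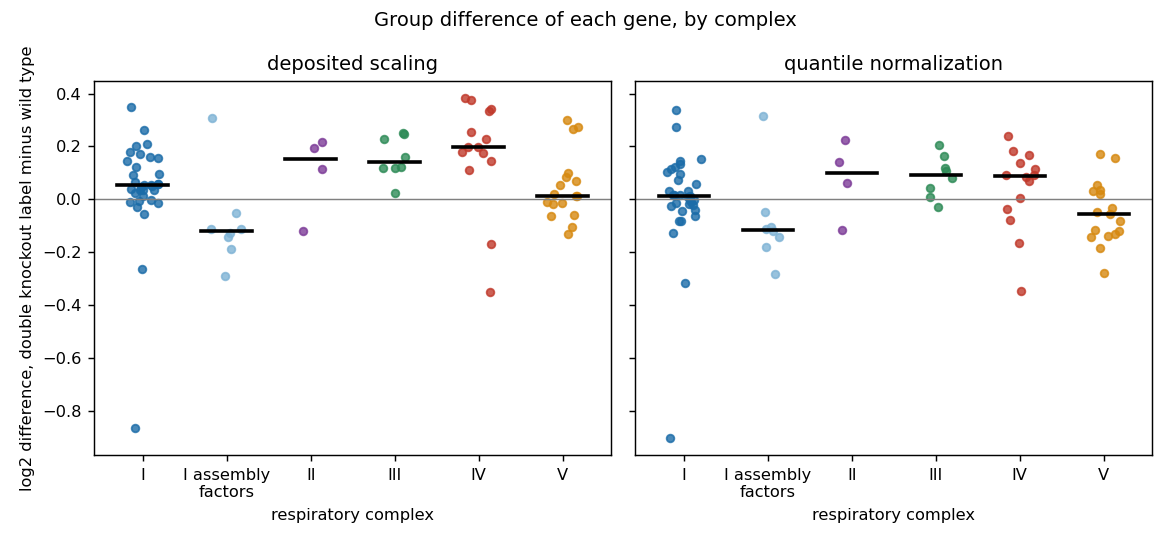
Log2 difference, double knockout label minus wild type, of each tested gene on its brightest probe set, by complex; points are genes, the black line is the median of the complex, the left panel has the deposited scaling and the right panel quantile normalization. The medians of complexes III and IV are 0.14 and 0.20 on the left and 0.09 in both on the right, and Ndufs5 is the lowest point in both panels.

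Over all 84 genes, 59 (70.2%) were above 0, against 51.5% of all 11053 tested genes, and the median difference was 0.06, against 0.01 over all tested genes. Under quantile normalization 45 were above 0 and 39 below, with a median of 0.01, and all tested genes again had 0.01. Of the 152 probe sets, 38 (25%) had every double knockout array above every wild type array, where 11.5% of all tested probe sets did, and 12 (7.89%) had every double knockout array below, where 10.7% did. Under quantile normalization these counts were 24 (15.8%) and 18 (11.8%) of the members, with 11.5% and 10.7% of all tested probe sets.

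Among bright probe sets, a difference of the same direction was seen in other genes. A mean log2 signal above 11 was reached by 40.1% of the tested member probe sets, against 3.62% of all tested probe sets; the share was 66.7% in complex IV, 64.3% in complex V and 0% among the assembly factors. Of the 753 other probe sets above 11, 80.7% were higher in the double knockout label, with a median of 0.15, and of the 61 members above 11, 75.4% were, with a median of 0.12. Above 12 the median was 0.29 over 12 member probe sets and 0.24 over 211 others. Every double knockout array lay above every wild type array for 36.1% of the members above 11 and for 25.2% of the other probe sets above 11. Under quantile normalization, which gives all arrays the same distribution of signals, the medians above 11 were 0.01 for members and 0.02 for the others. Between 10 and 11, 72.6% of 51 members were higher with a median of 0.08, against 56.2% of the other probe sets with a median of 0.03, and under quantile normalization 70.6% against 53%. Of the 7 members between 7 and 8, and of the 7 between 8 and 9, 14.3% each were higher, against 51% and 49.8% of the others. These members include probe sets of the assembly factors Ndufaf1, Ndufaf2, Ndufaf4, Ndufaf5 and Ndufaf7. The dimmer probe sets of Uqcr10 and Ndufs4 are also among them, so this repeats values given above. Above 11, the higher signal of members under the deposited scaling was shared by bright probe sets of other genes; no difference of members from other probe sets was tested at any level.

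**Figure D4:**
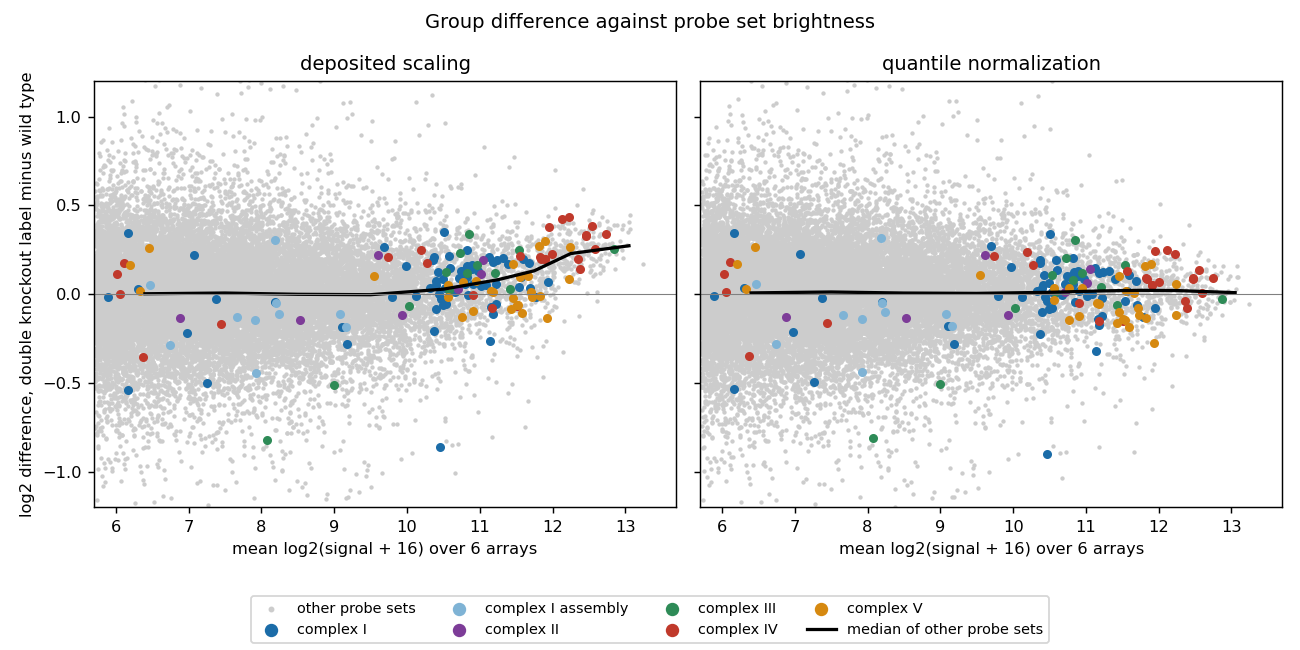
Log2 difference, double knockout label minus wild type, of each tested probe set against its mean log2(signal + 16) over the 6 arrays, under the deposited scaling (left) and quantile normalization (right). Grey points are other probe sets, coloured points are members by complex, the black line is the median of the other probe sets in bins of brightness, and other probe sets beyond 1.2 in either direction are outside the axes. On the left the black line leaves 0 above a mean log2 signal of 10 and passes 0.2 above 12; on the right it stays near 0.

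For the 84 genes the median relative to the wild type mean was 0.09, 0.07 and 0.05 in the double knockout label and -0.03, -0.04 and 0.06 in wild type, so wild type replicate 3 lay within the double knockout range. Under quantile normalization the medians were 0.02, 0.00 and 0.02 in the double knockout label and 0.06, -0.03 and -0.03 in wild type. For complex V under quantile normalization they were -0.05, -0.08 and -0.10 in the double knockout label and 0.02, 0.01 and 0.01 in wild type, which do not overlap.

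**Figure D5:**
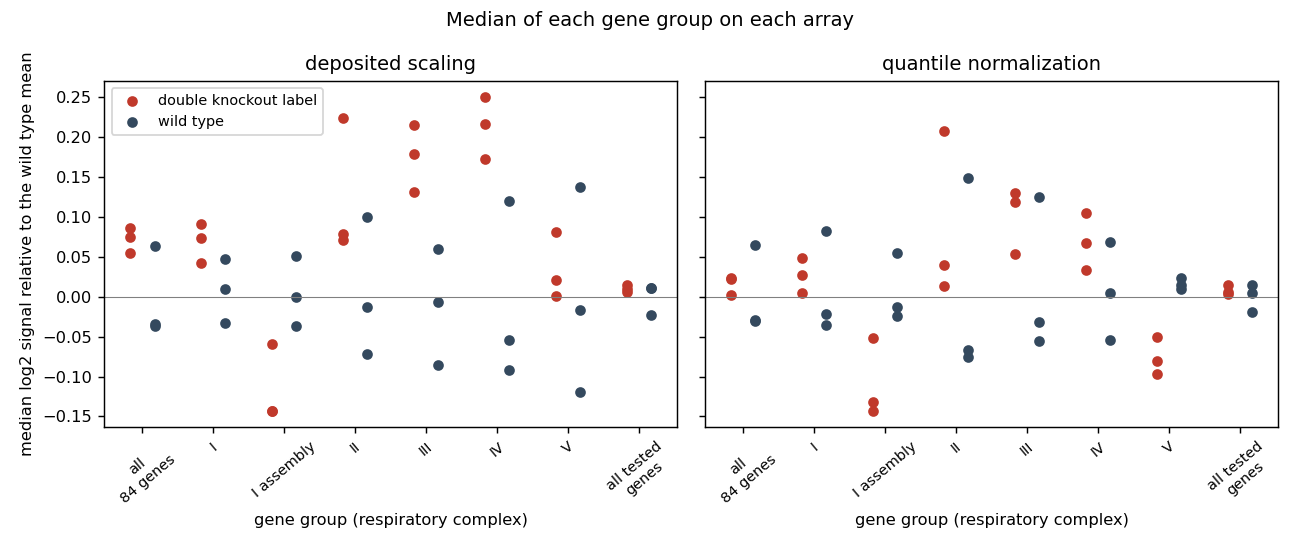
Median over the genes of each group of log2(signal + 16) relative to the wild type mean, for each array, under the deposited scaling (left) and quantile normalization (right). The 3 double knockout points of complexes III and IV are above the wild type points on the left and overlap them on the right, and those of complex V overlap on the left and are below the wild type points on the right.

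Probe sets of the same gene often differed. Of the 84 genes, 44 had several tested probe sets, and in 22 of these the differences had both signs, with a median span of 0.146 between the lowest and the highest. The span exceeded 0.5 in 4 genes. Uqcr10 had the widest, 0.84, followed by Ndufs4 with 0.76, Ndufs8, an iron-sulphur core subunit of complex I, with 0.62, and Ndufa10, an accessory subunit, with 0.60. For Ndufa10 the brightest probe set had 1764.0, 1905.2 and 1722.9 units in the double knockout label and 1733.9, 1641.0 and 1796.3 units in wild type (0.06), while 1418068_at had 42.8, 40.2 and 48.0 units in the double knockout label and 70.3, 55.0 and 89.9 units in wild type (-0.54, adjusted p = 0.185). Of the 10 probe sets with several symbols, 8 were tested and none passed (limma, 1 at an unadjusted p under 0.05), with differences from -0.32 to 0.34.

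Few genes of the neighbouring pathways passed, where 1.22% of all 11053 tested genes passed and 17.5% had an unadjusted p under 0.05 (limma). Among 18 genes of the tricarboxylic acid cycle and pyruvate dehydrogenase none passed (limma, 1 at an unadjusted p under 0.05), with a median of 0.05. Dlat, a subunit of pyruvate dehydrogenase, had a difference of 0.22 (adjusted p = 0.290) and Mdh2, mitochondrial malate dehydrogenase, one of 0.24 (0.351). Among 22 genes of electron carriers, coenzyme Q synthesis and transport none passed (limma, 0 at an unadjusted p under 0.05), with a median of 0.08. Vdac1, a channel of the outer membrane, had a difference of 0.26 (0.315) and Slc25a4, an ADP/ATP carrier, one of 0.23 (0.341). Among 18 regulators of mitochondrial biogenesis none passed (limma, 0 at an unadjusted p under 0.05), with a median of -0.02; Gabpb2 had -0.29 (0.389) and Tfb2m, a mitochondrial transcription factor, 0.23 (0.335). Of 34 further subunits and assembly factors of complexes II to V outside the rule none passed (limma, 5 at an unadjusted p under 0.05), with a median of -0.03. Sdhaf3, an assembly factor of succinate dehydrogenase, had 134.7, 105.9 and 132.0 units in the double knockout label and 187.0, 211.8 and 169.2 units in wild type (-0.55, adjusted p = 0.103). Cox20, which helps to insert a mitochondrially encoded subunit of complex IV, had 456.8, 323.4 and 374.6 units in the double knockout label and 446.2, 580.5 and 585.0 units in wild type (-0.47, adjusted p = 0.171).

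Glycolysis gave 1 call among 15 genes, and 5 had an unadjusted p under 0.05 (limma). Of all tested genes 1.22% passed and 17.5% were under 0.05 unadjusted. Pfkl, the liver form of phosphofructokinase, fell to 460.1, 411.2 and 405.2 units in the double knockout label, against 968.2, 820.5 and 1043.1 units in wild type (-1.12, SE 0.12, limma adjusted p = 0.00336). The median of the 15 was 0.08, and -0.01 under quantile normalization. The mitochondrially encoded ND5, a complex I subunit, had 11105.6, 9400.2 and 10443.6 units in the double knockout label and 6770.2, 9178.7 and 12292.0 units in wild type. The wild type arrays enclosed the double knockout arrays (0.17, adjusted p = 0.706). Under quantile normalization the difference was -0.05. That scaling sets signals by rank and gave ND5 the same value on double knockout replicates 1 and 3 and wild type replicates 2 and 3. The -0.05 therefore says little about its level.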

How the data were processed

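The 6 arrays were deposited as linear intensity signals per probe set, which the authors had summarised and scaled; the software they used, and its genome build, are not given in the sources used here. The trimmed mean of each array was nearly the same, so differences in total RNA cannot be seen. Signals under 1 were set to 1 (4.35% of values), 64 control probe sets were left out, and log2(signal + 16) of the 22518 probe sets above the median mean signal went into limma 3.58.1 under R 4.3.3 (a model of group alone, then eBayes with its trend option). Two-sided p-values were then given the Benjamini-Hochberg adjustment over all of these. With 3 arrays in each group the smallest two-sided p of an exact permutation test is 0.1, so none was run. The number of arrays limits the precision. Probe sets were named from GEO's platform annotation, updated through RefSeq.

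Members and lists were chosen with earlier results of these data known. Named members were those past the threshold, the 2 highest and the 2 lowest genes of each complex, all complex II genes and genes with isoforms; complex I assembly factors were treated as a group of their own, a choice made after seeing the data. For other lists, up to 3 called genes, otherwise the 2 with the smallest p, were named. Ndufs8, Ndufa10, Atp5b, Atp5d, Atp5e, the further Cox5b, Cox6a1 and Ndufs4 probe sets and some markers were named after their values were seen. Alternatives varied the pseudocount, scaling, filter, variance model, threshold and arrays used. Same-numbered arrays of the 2 groups did not deviate together (correlations -0.147, 0.001 and -0.101), so the number was not taken as a pairing.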

Additional observations from a re-analysis of the deposited data

How the results depend on the processing

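The count of 2 member probe sets past the threshold was 0 with no filter on dim probe sets (26 at an unadjusted p under 0.05), 0 with double knockout replicate 2 and wild type replicate 1 left out together (12), and 0 at an adjusted p of 0.01 (24), and between 0 and 4 when 1 array was left out. The count over all tested probe sets, 229, was 10 with no filter, 131 with no intensity trend, 12 without the same 2 arrays, 586 at an adjusted p of 0.1, 42 at 0.01, and between 34 and 292 when 1 array was left out. With the replicate block it was 182, 2 of them members, and that block changed no call of a named member. Under quantile normalization the median difference was 0.012 for all members, 0.0145 for complex I and 0.087 for complex IV, and averaging each gene's probe sets gave 0.057 for complex II; the cause was not tested. Over fits without 1 array the median lay between 0.06 and 0.09 for all members, 0.03 and 0.09 for complex I, 0.11 and 0.16 for complex II, 0.12 and 0.19 for complex III, 0.19 and 0.25 for complex IV, and -0.01 and 0.09 for complex V. Of 570 alternative values for 32 named probe sets, 549 kept sign and side of the threshold, 10 lost a call, 1 gained one and 10 changed sign. None of the sign changes was on a called probe set. Under quantile normalization they were Uqcrb (-0.0285), Cox6b1 (-0.077) and Atp5g3 (-0.12). The others came from leaving out arrays. Over those fits Cox6a2 ran from -0.32 to 0.0063, Atp5o from -0.23 to 0.0065 and Ndufa4l2 from -0.20 to 0.40. Atp5g1 ran from -0.10 to 0.18, Atp5g2 from -0.021 to 0.11 and Atp5g3 from -0.052 to 0.20. The brightest Uqcr10 probe set was not among the 32. It turned to -0.0062 without double knockout replicate 1 and to -0.048 without wild type replicate 2. In each of these fits 7 complex III genes were above 0 and 1 below. With 3 arrays a group, differences of the size seen in most members cannot be told from the spread between arrays, and probe sets with a low signal over background were not tested.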
